A study of Mus musculus with 4 samples.

Results

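Chondroitin sulfate is the sulfated sugar chain that cartilage proteoglycans carry, and 10 genes for its synthesis and sulfation, with 1 heparan sulfate sulfatase among them, were followed in cultured rib chondrocytes with and without Senp6. The genes were chosen by name, as sulfate transport, sulfate activation and glycosaminoglycan chain enzymes: Slc26a2, Papss1, Papss2, Xylt1, Csgalnact1, Chsy1, Chst3, Chst11, Ust and Sulf1. All 10 had a row in every sample, of 18298 genes that were read in any of the 4, and all 10 passed the filter on low counts that left 14123 genes for testing. RNA was sequenced from 2 Senp6-Mut cultures (Dermo1-Cre;Senp6f/f) and 2 WT cultures (Senp6f/f, which carry the floxed allele but no Cre). All were passage 1 rib chondrocytes from E18.5 embryos (the last days before birth) on a C57BL/6 background. Dermo1-Cre is expressed from the Twist2 locus in mesenchymal progenitors of cartilage and bone, so cells outside that lineage keep Senp6. Nothing in the labels says that the replicates came from separate litters, and p-values measure the spread between these samples, which may be in part technical.

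The chains are built in a fixed order. Sulfate enters the cell through a transporter and is activated to PAPS, the sulfate donor of all sulfotransferases. A xylose is put on a serine of the core protein, a linker of 4 sugars is completed on it, and N-acetylgalactosamine and glucuronic acid are then added in turn while sulfotransferases place sulfate at set carbons. Cartilage depends on this supply: loss of SLC26A2 or PAPSS2 function causes inherited chondrodysplasias, and the dense sulfate charge of aggrecan holds the water that lets cartilage bear load.

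Library sizes after TMM scaling ranged from 20290713 to 31031648 reads on genes per sample. Senp6 itself had 1125 and 2326 reads in WT replicates 1 and 2 and 1839 and 1126 in Senp6-Mut replicates 1 and 2, so the groups overlapped, and a count over the whole gene does not measure the loss of the floxed exons. Embryo sex was mixed within the Senp6-Mut pair, since Xist had 11354 reads in replicate 2 and at most 5 in each of the other samples. All 13 chondrocyte markers listed were read in every sample, with Col2a1 at an RPKM of 609 and 659 in WT and of 334 and 445 in Senp6-Mut. Col1a1, a collagen gene of fibroblasts and bone, was above Col2a1 in every sample, at 7253 and 4961 in WT and 4828 and 3311 in Senp6-Mut. Summed over the chondrocyte list, the RPKM was 910 and 907 in WT and 420 and 565 in Senp6-Mut, and 12 of the 13 genes were lower in both Senp6-Mut samples. Beside this and the counts of the lists below, 28.3% of all genes tested were higher and 19.2% lower in both Senp6-Mut samples in RPKM. The skeletal muscle list summed to 101 and 35.8 in WT and to 183 and 202 in Senp6-Mut, with 7 of 10 genes higher in both. The macrophage list summed to 18.4 and 16.1 in WT and to 7.0 and 11.1 in Senp6-Mut, with 4 of the 5 genes tested lower in both and Cd68 overlapping. The fibroblast list summed to 12059 and 8389 in WT and to 8401 and 6168 in Senp6-Mut, with 4 of 6 genes lower and 1 higher in both. The osteoblast list summed to 482 and 538 in WT and to 498 and 641 in Senp6-Mut, most of it Spp1, which was higher in both Senp6-Mut samples. The other 3 osteoblast genes tested, Ibsp, Sp7 and Alpl, were lower in both, and Bglap was at 0 in 1 sample of each group. Endothelial, erythroid and epithelial lists summed to at most 3.45 in any sample, with Hba-a1 at 0 in 3 of 4 samples and Krt5 at 0 in both Senp6-Mut samples.

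Levels are given as RPKM, reads scaled by the length of the gene and by the total reads counted on genes, which allows genes of different length to be compared. In the WT cultures the order of the mean RPKM was Chsy1 (37.9), Papss1 (28.5), Sulf1 (25.5), Papss2 (15.0), Chst11 (8.96), Slc26a2 (7.65), Csgalnact1 (7.52), Ust (3.71), Xylt1 (3.61) and Chst3 (0.332). The ranges of the 2 WT samples overlapped between the neighbours Papss1 and Sulf1, Chst11 and Slc26a2, Slc26a2 and Csgalnact1, and Ust and Xylt1, so these neighbours cannot be ordered. In the Senp6-Mut cultures Sulf1 stood first, with a mean RPKM of 47.4, above Chsy1 (35) and Papss1 (26.3), and only the neighbours Papss2 and Chst11 overlapped. Csgalnact1 (7.92) was above Slc26a2 (6.40) in Senp6-Mut, a pair that could not be ordered in WT.

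**Figure D1:**
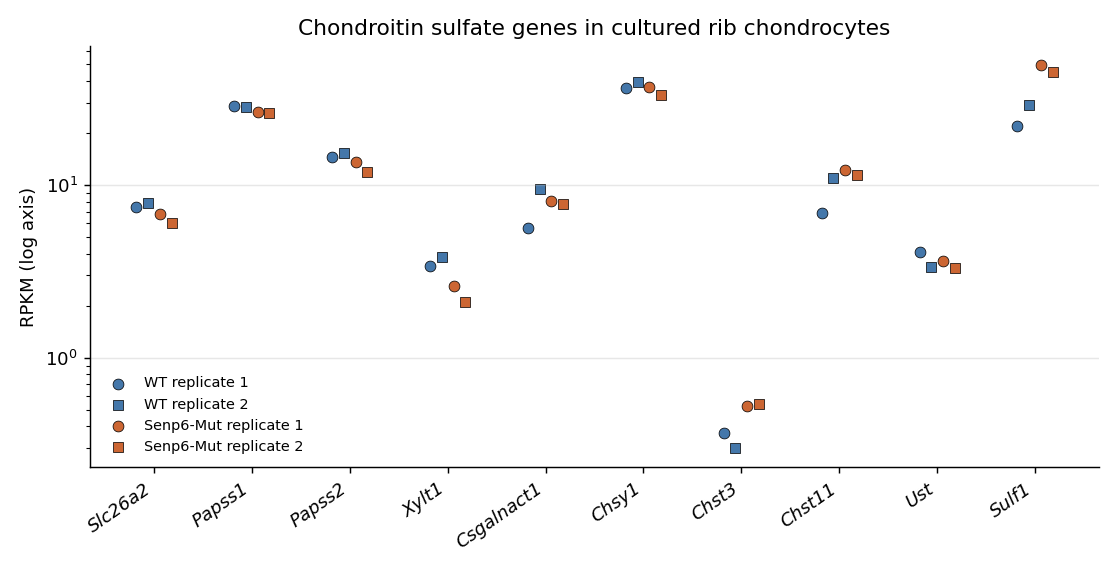
RPKM (log axis) of the 10 genes in the 2 WT and the 2 Senp6-Mut samples, 1 point a sample. Sulf1 lies at 22.0 and 29.0 in WT and at 49.5 and 45.3 in Senp6-Mut, Xylt1 is lower in both Senp6-Mut samples, and Chst3 lies under an RPKM of 1 in all 4.

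Counts were compared with the quasi-likelihood test of edgeR, with p adjusted by the Benjamini-Hochberg method over the 14123 genes. None of the 10 genes had an adjusted p under 0.05 in this test, nor had any gene of the table, so the background was 0% in each direction. At an unadjusted p under 0.05 in edgeR, Sulf1 was higher and Xylt1 was lower, where 9.29% of all genes tested were higher and 6.28% were lower at that threshold. Below an adjusted p of 0.1 in edgeR, Sulf1 was the only one of the 10, where 1.52% of genes were higher and 0.496% lower. DESeq2 placed Sulf1 past an adjusted p of 0.05, and no other of the 10, against a background of 3.07% higher and 1.86% lower. For 1 gene alone, 2 samples against 2 allow no two-sided p under 0.333 in an exact permutation test. In TMM-scaled CPM, counts divided by the scaled library size, both Senp6-Mut samples were above both WT samples for 3 genes (Sulf1, Chst3, Chst11) and below both for 5 (Xylt1, Slc26a2, Papss2, Papss1, Chsy1). Over all genes tested, 25.4% were above and 22.8% below in this sense, so 48.1% of genes did not overlap in either direction. In RPKM 3 of the 10 genes were above and 4 below, with backgrounds of 28.3% and 19.2%. Without overlap and with a log2 fold change of at least 0.5 in size, Sulf1 and Chst3 were above and Xylt1 below, with backgrounds of 11% and 6.73%. The median log2 fold change of the 10 genes was -0.15, beside 0.010 for all genes tested. The absolute log2 difference between replicates had a median of 0.22 in the WT pair and 0.16 in the Senp6-Mut pair for these genes, and of 0.26 and 0.15 for all genes tested.

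**Figure D2:**
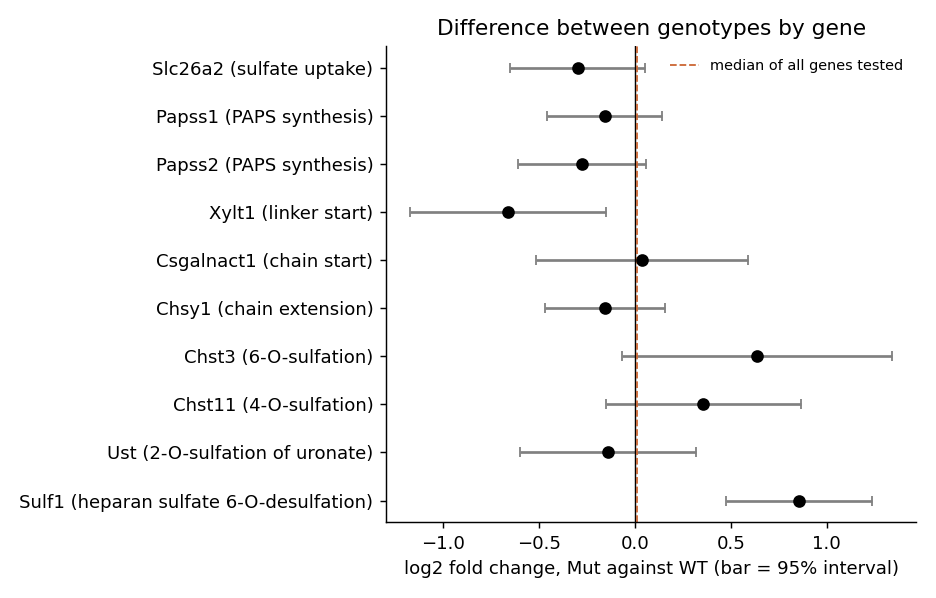
Log2 fold change of Senp6-Mut against WT for the 10 genes from edgeR (points), with 95% intervals (bars), and the median of all genes tested (dashed line). The intervals of Sulf1 (0.48 to 1.24) and Xylt1 (-1.17 to -0.15) lie off 0 before adjustment, and the other 8 span it.

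Sulf1 had the largest difference. It encodes a secreted endosulfatase that removes sulfate from carbon 6 of glucosamine in heparan sulfate, outside the cell, and so edits the chains that bind FGF and WNT ligands rather than building chondroitin sulfate. Its RPKM was 22.0 and 29.0 in WT replicates 1 and 2 and 49.5 and 45.3 in Senp6-Mut replicates 1 and 2. Both Senp6-Mut samples thus lay above both WT samples, and the gap between the groups was wider than the gap within either, with means of 25.5 ± 4.98 and 47.4 ± 2.95 (SD, n = 2 each). The counts behind these levels were 2141 and 3517 in WT and 7113 and 5936 in Senp6-Mut, and the log2 fold change was 0.86 (SE 0.16, 95% interval 0.48 to 1.24), a 1.81-fold difference (edgeR adjusted p = 0.0916). Its unadjusted p in edgeR had rank 193 among the 14123 genes tested. DESeq2 gave 0.84 with an adjusted p of 0.000362. With each sample left out in turn the edgeR log2 fold change was 0.69 without WT replicate 1 and 1.01 without WT replicate 2. It was 0.77 without Senp6-Mut replicate 1 and 0.94 without Senp6-Mut replicate 2, the sample with Xist reads. Its paralog Sulf2 had an RPKM of 61.0 and 42.4 in WT and of 58.4 and 74.2 in Senp6-Mut, which overlapped. Sulf1 made up 26.5% and 40.6% of the summed RPKM of the pair in WT and 45.9% and 37.9% in Senp6-Mut, so the share of Sulf1 overlapped between the groups as well. The skeletal muscle list was higher in the same samples as Sulf1 and the chondrocyte list lower, and their part in the Sulf1 values was not tested.

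The genes outside the 10 whose pattern over the 4 samples was nearest to that of Sulf1 were Cnn1, Mcf2l and Nt5e. Their Euclidean distances were 0.089, 0.090 and 0.10 on log2 CPM centred on each gene's mean, so levels were not compared. Cnn1, which encodes the actin-binding protein calponin, had an RPKM of 40.4 and 50.1 in WT and of 88.6 and 84.9 in Senp6-Mut. Of 14113 genes, 76 lay within a distance of 0.25.

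Of the supply genes, Slc26a2 encodes the sulfate transporter of the chondrocyte plasma membrane. Its RPKM was 7.45 and 7.85 in WT and 6.82 and 5.98 in Senp6-Mut, lower in both Senp6-Mut samples. The log2 fold change was -0.30 (SE 0.15, 95% interval -0.65 to 0.054, edgeR adjusted p = 0.403). The PAPS synthases join sulfate to ATP and phosphorylate the product. Papss2, the isoform known for its role in cartilage, had an RPKM of 14.6 and 15.4 in WT and 13.6 and 11.9 in Senp6-Mut, again without overlap and with a log2 fold change of -0.28 (SE 0.14, 95% interval -0.61 to 0.059, edgeR adjusted p = 0.412). Papss1 had an RPKM of 28.8 and 28.1 in WT and 26.5 and 26.1 in Senp6-Mut. Its groups did not overlap either, although they differed by a log2 fold change of only -0.16 (SE 0.12, 95% interval -0.46 to 0.14, edgeR adjusted p = 0.610). The 3 genes were thus between 0.814 and 0.896 times their WT level. With 1 sample left out in turn, their log2 fold changes lay between -0.42 and -0.12. Groups that do not overlap keep their sign when 1 sample is left out, so the constant sign adds no support. In every sample Papss1 was above Papss2, by 1.98 and 1.83 times in WT and by 1.95 and 2.19 times in Senp6-Mut, so the balance of the synthases overlapped between the groups.

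Papss1 and Papss2 each have 2 starts in the RefSeq promoter table (build GRCm38.p6), which holds promoters for 6 of the 10 genes, and the gene counts do not separate transcripts from the 2 starts. The Papss2 promoters are shown because this gene was lower in both Senp6-Mut samples and its starts differ in base composition. The same held for Papss1, whose starts had a GC content of 66.3% and 47.3%. Each sequence runs from 250 bases before to 50 bases after the start, 5′ to 3′ on the gene's strand, with capitals for each GGGCGG or its reverse complement, the GC box.
Papss2 first start, chr19:32595465-32595764, plus strand: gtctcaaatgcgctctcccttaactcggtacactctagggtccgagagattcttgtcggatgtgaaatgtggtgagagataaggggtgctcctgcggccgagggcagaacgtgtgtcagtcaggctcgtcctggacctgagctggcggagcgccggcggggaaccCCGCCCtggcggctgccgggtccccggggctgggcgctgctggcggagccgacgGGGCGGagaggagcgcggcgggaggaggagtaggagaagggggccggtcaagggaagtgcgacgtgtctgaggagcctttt
Papss2 second start, chr19:32619755-32620054, plus strand: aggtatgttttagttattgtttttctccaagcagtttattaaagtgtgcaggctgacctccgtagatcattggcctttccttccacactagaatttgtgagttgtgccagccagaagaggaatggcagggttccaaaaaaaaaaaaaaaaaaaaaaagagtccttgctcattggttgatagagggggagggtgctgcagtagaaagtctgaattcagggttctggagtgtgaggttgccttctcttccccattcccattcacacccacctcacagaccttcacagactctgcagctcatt
The first has a GC content of 66.3% and 2 GC boxes, and the second has a GC content of 44.3%, no GC box and 2 CCAAT matches. Over the 32851 promoters of the table, on both strands, 35.7% hold GGGCGG, 37.4% hold CCAAT and 13.6% hold TATAAA. No TATAAA was found in any of the 8 promoters of these genes.

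Xylt1 encodes a xylosyltransferase, one of a pair of enzymes that start chondroitin and heparan sulfate chains by putting xylose on the core protein. Of the 10 genes it had the lowest Senp6-Mut to WT ratio. Its RPKM was 3.41 and 3.81 in WT and 2.60 and 2.10 in Senp6-Mut, from 182 to 306 reads, and the groups did not overlap. The log2 fold change was -0.66 (SE 0.21, 95% interval -1.17 to -0.15), or 0.633 times the WT level (edgeR adjusted p = 0.216, DESeq2 adjusted p = 0.192). It ranged from -0.84 to -0.50 with 1 sample left out. Xylt2, the other xylosyltransferase, was higher than Xylt1 in all 4 samples, and the RPKM ratio of Xylt1 to Xylt2 was 0.253 and 0.349 in WT and 0.256 and 0.186 in Senp6-Mut. The ratios overlapped, since WT replicate 1 and Senp6-Mut replicate 1 had nearly the same value. Xylt1, Slc26a2, Papss1 and Papss2 were lower in the samples in which the chondrocyte list was lower, and the part of that list in these values was not tested.

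Csgalnact1 transfers the first N-acetylgalactosamine and so commits the linker to chondroitin sulfate. Its RPKM was 5.62 and 9.42 in WT and 8.13 and 7.72 in Senp6-Mut, with both Senp6-Mut samples between the WT samples. The log2 fold change was 0.038 (SE 0.23, 95% interval -0.51 to 0.59, edgeR adjusted p = 0.957), and its sign depended on single samples, with -0.27 without WT replicate 1, 0.40 without WT replicate 2 and -0.019 without Senp6-Mut replicate 1. Chsy1, a chondroitin synthase that extends the chain, had an RPKM of 36.5 and 39.3 in WT and 37.0 and 33.0 in Senp6-Mut. These overlapped in RPKM but not in TMM-scaled CPM, where WT had 158 and 163 and Senp6-Mut 154 and 134. The log2 fold change of Chsy1 was -0.16 (SE 0.13, 95% interval -0.47 to 0.16, edgeR adjusted p = 0.635). Chsy1 was read well above Chsy3, 14.3 and 17.7 times in WT and 19.0 and 16.7 times in Senp6-Mut, while Csgalnact1 and Csgalnact2 were near each other, with ratios of 0.793 and 1.14 in WT and 1.05 and 1.03 in Senp6-Mut.

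Sulfate is placed on carbon 4 or carbon 6 of N-acetylgalactosamine by different enzymes, and on carbon 2 of the uronic acid by Ust. Chst11, a carbon 4 sulfotransferase needed for growth plate organisation in mice, had an RPKM of 6.92 and 11.0 in WT and 12.2 and 11.3 in Senp6-Mut. WT replicate 1 stood apart and WT replicate 2 came close to the Senp6-Mut samples, at 60.6 against 61.1 TMM-scaled CPM for Senp6-Mut replicate 2. The log2 fold change of 0.36 (SE 0.21, 95% interval -0.15 to 0.86, edgeR adjusted p = 0.491) turned on the WT samples. It was 0.079 without WT replicate 1 and 0.67 without WT replicate 2. Chst3, a carbon 6 sulfotransferase of cartilage, was the least read of the genes, with 47 and 48 reads in WT and 100 and 93 in Senp6-Mut. Its RPKM was 0.365 and 0.300 in WT and 0.526 and 0.537 in Senp6-Mut, which did not overlap. The percent of its length of 6129 bases covered by reads was 50.7% and 45.2% in WT and 71.7% and 68.6% in Senp6-Mut. This percent rises with the read count and is not scaled for depth, so it is not a separate measure. The other 9 genes were covered over at least 85.2% of their length in every sample. At this depth the log2 fold change of Chst3 was 0.64 (SE 0.29, 95% interval -0.067 to 1.34, edgeR adjusted p = 0.368; DESeq2 adjusted p = 0.667), or 1.56-fold with an interval from 0.955-fold to 2.53-fold. Ust had an RPKM of 4.09 and 3.33 in WT and 3.61 and 3.32 in Senp6-Mut, which overlapped, with a log2 fold change of -0.14 (SE 0.19, 95% interval -0.60 to 0.32, edgeR adjusted p = 0.786).

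The promoters of the carbon 4 and the carbon 6 enzyme are shown because both genes had higher values in both Senp6-Mut samples, in the same layout and with GC boxes in capitals.
Chst11, chr10:82985247-82985546, plus strand: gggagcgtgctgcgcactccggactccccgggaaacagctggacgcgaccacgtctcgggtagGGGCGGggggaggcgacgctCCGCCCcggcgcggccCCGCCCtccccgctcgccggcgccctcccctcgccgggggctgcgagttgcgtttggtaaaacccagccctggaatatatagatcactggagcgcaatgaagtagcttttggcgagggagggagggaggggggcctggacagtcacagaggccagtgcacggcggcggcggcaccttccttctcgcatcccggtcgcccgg
Chst3, chr10:60219211-60219510, minus strand: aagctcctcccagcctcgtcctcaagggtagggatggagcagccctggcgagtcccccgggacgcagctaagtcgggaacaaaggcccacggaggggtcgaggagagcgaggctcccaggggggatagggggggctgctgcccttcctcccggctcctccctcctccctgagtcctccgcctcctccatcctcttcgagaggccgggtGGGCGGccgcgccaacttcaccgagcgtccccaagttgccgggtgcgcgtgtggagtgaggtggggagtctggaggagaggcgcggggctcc
The GC content was 71.0% for Chst11 and 70.0% for Chst3, against a median of 52.7% over all promoters of the table. Chst11 holds 3 GC boxes and Chst3 holds 1, and neither holds a CCAAT match. The promoters of Chsy1 and Ust, genes that were not higher in both Senp6-Mut samples, had a GC content of 65.3% and 66.3%, with 2 GC boxes each.

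Within a sample, the ratio of 2 enzymes does not depend on the scaling of the library. The RPKM of Chst11 was 19.0 and 36.7 times that of Chst3 in WT and 23.2 and 21.1 times in Senp6-Mut, and that of Chst3 was 0.136 and 0.116 times that of Chst7 in WT and 0.134 and 0.118 times in Senp6-Mut. Chst7 is the other carbon 6 sulfotransferase of chondroitin. Chst12, another carbon 4 enzyme, was the most abundant chondroitin sulfotransferase, and the ratio of Chst11 to Chst12 was 0.0770 and 0.144 in WT and 0.145 and 0.138 in Senp6-Mut. All 8 ratios examined overlapped between the groups. These pairs were chosen after the values were seen.

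**Figure D3:**
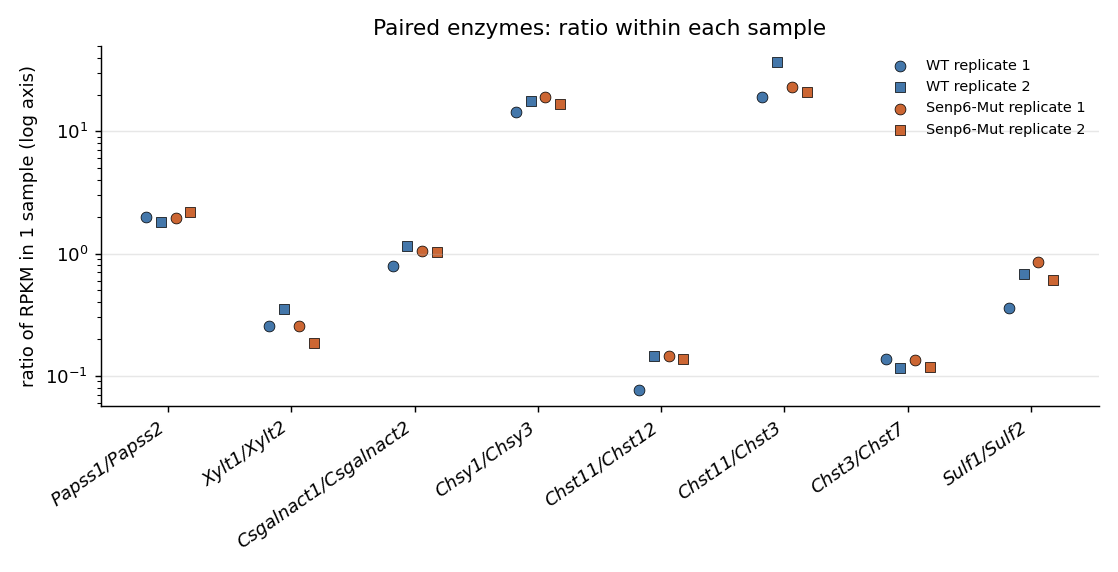
Ratio of the RPKM of 2 enzymes within each sample (log axis) for 8 pairs, with 1 point a sample. WT and Senp6-Mut points overlap in every pair. WT replicate 1 is lowest for Csgalnact1/Csgalnact2 (0.793), Chsy1/Chsy3 (14.3), Chst11/Chst12 (0.0770), Chst11/Chst3 (19.0) and Sulf1/Sulf2 (0.360).

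Beside the 10 genes, 68 other genes of glycosaminoglycan metabolism were listed by step, and 67 of them were tested (Chst13, with 4 to 11 reads, was not). None had an adjusted p under 0.05 in edgeR. At an unadjusted p under 0.05 in edgeR, 7 of the 67 were higher and 12 lower, where the shares over all genes tested were 9.29% and 6.28%. DESeq2 placed 4 of the 67 past an adjusted p of 0.05, all lower, with Vcan, Epyc and Srgn among them. Of all genes tested, DESeq2 placed 3.07% higher and 1.86% lower at that threshold. In TMM-scaled CPM 13 were higher and 22 lower in both Senp6-Mut samples, and the median log2 fold change was -0.067. The shares to read this and each count without overlap by step against are those of all genes tested, 25.4% higher and 22.8% lower.

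Of the 5 other genes of sulfate uptake and activation, 1 was higher and 1 lower without overlap, and the median log2 fold change was 0.075. Slc35b2, which carries PAPS into the Golgi, had an RPKM of 39.1 and 40.0 in WT and 33.2 and 33.3 in Senp6-Mut (log2 fold change -0.29, SE 0.12, edgeR adjusted p = 0.320), the same direction as Slc26a2 and Papss2. Among 9 genes of nucleotide sugar supply, 1 was higher and 1 lower without overlap, and the median log2 fold change was -0.0041. Ugdh, which makes UDP-glucuronic acid, had 69.7 and 94.6 in WT and 103 and 121 in Senp6-Mut (log2 fold change 0.41, edgeR adjusted p = 0.314). Its log2 fold change was 0.22 without WT replicate 1 and 0.59 without WT replicate 2. The 6 linker genes had a median log2 fold change of -0.090, with 2 lower without overlap, and B3gat3, which adds the glucuronic acid of the linker, had 27.6 and 24.6 in WT and 23.8 and 24.5 in Senp6-Mut. The 6 other genes of the chondroitin chain had log2 fold changes between -0.35 and -0.050, all below 0, and 4 were lower without overlap, beside 22.8% of all genes tested. Of all genes tested, 7262 of 14123 had a log2 fold change above 0. Chpf, the chondroitin polymerizing factor, was the most abundant of them and overlapped, at 92.2 and 69.6 in WT and 76.1 and 80.6 in Senp6-Mut.

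Among the 4 other chondroitin sulfotransferases tested, Chst7 had an RPKM of 2.69 and 2.59 in WT and 3.92 and 4.55 in Senp6-Mut (log2 fold change 0.64, edgeR adjusted p = 0.216). The log2 fold change of Chst7, but not its level, was close to that of Chst3. Chst12 overlapped, with 89.9 and 76.3 in WT and 84.3 and 82.2 in Senp6-Mut. Of 16 heparan sulfate genes 6 were higher and 2 lower without overlap, beside 25.4% and 22.8% of all genes tested. Ndst3, an N-deacetylase and N-sulfotransferase, had 0.36 and 0.50 in WT and 0.97 and 0.96 in Senp6-Mut (log2 fold change 1.14, edgeR adjusted p = 0.133). Its log2 fold change was 0.94 without WT replicate 1 and 1.35 without WT replicate 2. Hs3st1 and Hs3st3a1, which both place sulfate on carbon 3 of glucosamine, differed in opposite directions, with log2 fold changes of 0.89 (edgeR adjusted p = 0.235) and -0.72 (edgeR adjusted p = 0.221). The value of Hs3st3a1 was -0.60 without WT replicate 1 and -0.87 without WT replicate 2. Ext2, a copolymerase of the chain, overlapped, at 81.4 and 68.9 in WT and 67.1 and 73.3 in Senp6-Mut.

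Of 14 degradation genes 2 were higher and 7 lower without overlap, beside 25.4% and 22.8% of all genes tested. Naglu, a lysosomal glucosaminidase, had 23.5 and 15.1 in WT and 12.6 and 12.4 in Senp6-Mut (log2 fold change -0.67, edgeR adjusted p = 0.234). Its log2 fold change was -0.29 without WT replicate 1 and -1.01 without WT replicate 2. Hyal1, a hyaluronidase that also cuts chondroitin, had 3.12 and 2.48 in WT and 3.66 and 5.2 in Senp6-Mut (log2 fold change 0.62, edgeR adjusted p = 0.330).

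The core proteins that carry the chains all had groups without overlap, 5 of 7 lower and 2 higher, beside 22.8% and 25.4% of all genes tested, with a median log2 fold change of -0.54. Acan, the aggrecan gene, had an RPKM of 16.8 and 28.2 in WT and 16.5 and 15.1 in Senp6-Mut (log2 fold change -0.54, SE 0.23, edgeR adjusted p = 0.326), with WT replicate 1 next to the Senp6-Mut samples. Without WT replicate 1 the log2 fold change was -0.85, and without WT replicate 2 it was -0.18. Epyc, an epiphycan of growth plate cartilage, had 7.13 and 9.08 in WT and 2.28 and 3.45 in Senp6-Mut (log2 fold change -1.54, edgeR adjusted p = 0.0872, DESeq2 adjusted p = 6.63e-05). Dcn had 170 and 73.6 in WT and 54.0 and 40.9 in Senp6-Mut (log2 fold change -1.41, edgeR adjusted p = 0.167). Its log2 fold change was -0.65 without WT replicate 1 and -1.94 without WT replicate 2. Srgn, the granule proteoglycan of blood cells, had 3.70 and 1.18 in WT and 0.378 and 0.491 in Senp6-Mut (log2 fold change -2.52, edgeR adjusted p = 0.144), from 73, 29, 11 and 13 reads. The log2 fold change of Srgn was -1.46 without WT replicate 1 and -3.18 without WT replicate 2. Bgn was by far the most abundant, with 1683 and 1749 in WT and 2033 and 1925 in Senp6-Mut (log2 fold change 0.16, edgeR adjusted p = 0.614). The chondrocyte marker list was lower in the same samples as Epyc and Acan, but Acan is itself in that list. The macrophage list was lower in the same samples as Srgn. Fewer cells of a type and less RNA per cell cannot be told apart in these bulk cultures, and the part of the cell type mix in the core protein values was not tested.

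**Figure D4:**
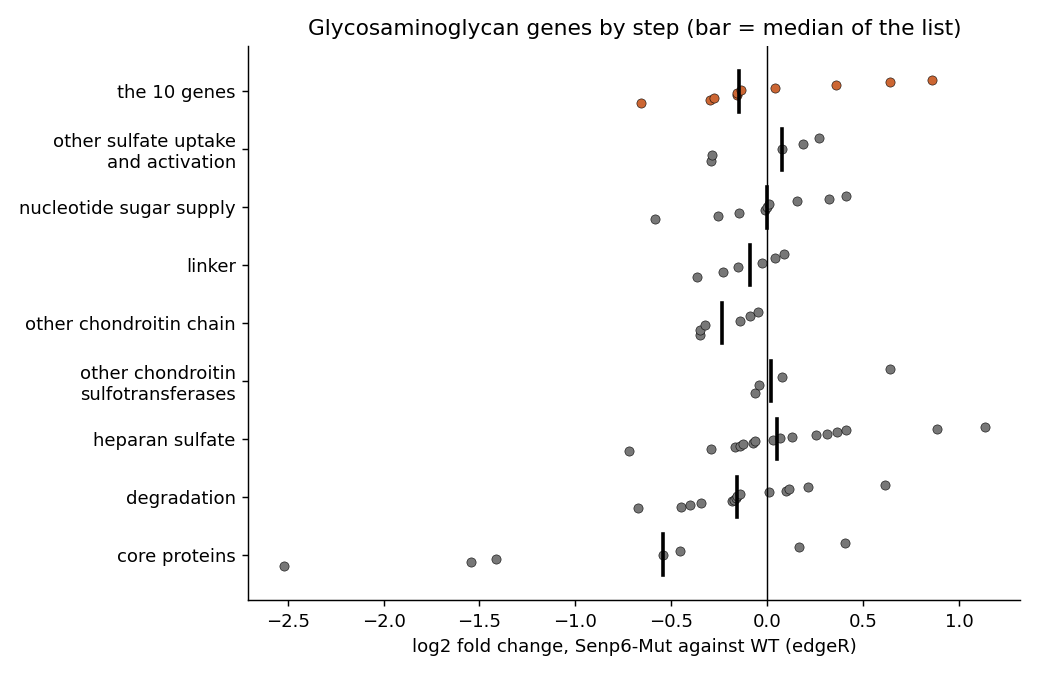
Log2 fold change of Senp6-Mut against WT from edgeR for the 10 genes and for the 67 other genes tested, by step, with the median of each list as a bar. The 6 other chondroitin chain genes lie between -0.35 and -0.050, while the core proteins range from -2.52 (Srgn) to 0.40 (Cspg4).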

How the data were processed

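Total RNA was extracted from 2 WT and 2 Senp6-Mut cultures of passage 1 rib chondrocytes, selected with oligo(dT) and turned into randomly primed cDNA. The authors deposited 1 file per sample with whole-number read counts per Entrez gene, RPKM values and a coverage in percent, read here from its column name as the percent of the gene length with at least 1 read. The deposited RPKM equals the count divided by the listed gene length and by the total count of the sample, in the usual RPKM scale. The submitters' processing notes name mm9 and SAMtools, while the aligner, the counter, the annotation and the use of strand are not given in the sources used here. The labels name an Ion Proton and an Illumina instrument for the same samples. Chsy1 shares exonic bases with an antisense transcript in GENCODE M21, whose reads cannot be told apart without strand. Reads carry no molecular identifiers, so counts are not independent molecules.

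Counts from a gene listed in only some files were set to 0 in the others. Genes that reached 10 counts in 2 or more samples were tested with TMM scaling and the robust quasi-likelihood test of edgeR 4.0.16 in R 4.3.3, two-sided, with Benjamini-Hochberg adjustment over 14123 genes and a threshold of 0.05. A difference of log2 values is Senp6-Mut minus WT, and values are given as mean ± SD or per sample (n = 2 per group). Alternatives were DESeq2 1.42.0, RLE size factors, a fit of every gene with a read, a fit of genes that reached 10 counts in all 4 samples, limma 3.58.1 with a pseudocount of 1 or 0.1 added to RPKM before log2, a replicate block, and fits that left out 1 sample. The procedure was run on simulated counts in which every gene had the same biological spread between replicates. That run does not give its error rates in these samples. WT replicates differed beyond sampling noise (chi-square per degree of freedom 49.7), as did the Senp6-Mut replicates (24.0). The genes and the lists were chosen with earlier results of these data known. Outside the 10 genes, a gene was named if it was the most abundant of its list, or if its groups did not overlap and its log2 fold change was at least 0.5 in size. Some genes that met this rule are not reported here. Vcan and Cspg4 were named after their values were seen, as were the second genes of the ratios. For likeness, the 3 nearest genes to Sulf1 were taken. Promoter sequences came from RefSeq (GRCm38.p6), and the promoter positions are those of that table, not of the mm9 build of the files, for which no coordinates are given.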

Additional observations from a re-analysis of the deposited data

How the results depend on the processing

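The count of genes past an adjusted p of 0.05 was 0 of 14123 in edgeR with TMM or RLE scaling and with limma, 0 of 13181 with at least 10 counts in every sample, 697 with DESeq2 (434 higher, 263 lower) and 286 with no filter (225 higher, 61 lower). Of the 10 genes, 1 (Sulf1) passed with DESeq2 and 1 (Sulf1) with no filter, and of the other genes of the pathway 4 passed with DESeq2 and 1 (Epyc) with no filter. The cause was not tested. With 1 sample left out, which assumes that a lone sample varies like the other group, between 143 and 2823 genes passed, between 0 and 2 of the 10 and between 0 and 22 of the other pathway genes. The highest counts came without WT replicate 2, when Sulf1 and Chst11 passed. The median log2 fold change of the 10 genes ranged from -0.20 to -0.061, the value nearest 0 being without Senp6-Mut replicate 2. With 2 samples against 2, the groups of 8 of the 10 genes did not overlap with TMM or RLE scaling, and of 7 in RPKM.

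The replicate differences of the WT and the Senp6-Mut pair had a correlation of -0.042 across genes. This value cannot show whether samples with the same replicate number were matched. With the replicate block 117 genes passed (84 higher, 33 lower), and 0 of the 10, with Sulf1 at 0.86 (adjusted p = 0.0939).

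The sign changed for Chst12 with limma (0.0077 and 0.0078). With 1 sample left out it changed for Csgalnact1 (-0.27 to 0.40), Ust (-0.33 to 0.041), Chst12 (-0.21 to 0.11), Chpf (-0.33 to 0.15) and Ext2 (-0.31 to 0.0062). Of the 10 genes Chst3 had the fewest reads, 47 to 100 a sample.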
